A study of Mus musculus with 10 samples.

Results

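The genes described here are 9 genes that build, remodel or carry long-chain polyunsaturated fatty acids and the phospholipids that hold them. They were chosen by name, as the rows of the gene table named *Elovl2*, *Elovl4*, *Elovl5*, *Fads1*, *Fads2*, *Scd2*, *Lpcat1*, *Agpat3* and *Mfsd2a*, and make up 9 of its 54532 genes. Expression was measured by RNA-seq in 10 samples of neural retina from BALB/c mice aged 2 months, an albino strain for which no engineered allele is given. Each sample is called a retina here. All mice spent 12 hr in darkness and were then under normal light of 200 lux (NL) or high-intensity light of 15000 lux (LD, light damage) for 1 day. There were 5 retinas in each group, numbered 1, 4, 5, 7 and 8 under NL and 1, 4, 6, 7 and 8 after LD. The comparison asks which retinal transcripts differ after 1 day of damaging light, as part of a search for factors that damaging light induces.

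Photoreceptor outer segments are stacks of membrane discs that are renewed throughout life, and their phospholipids are rich in docosahexaenoic acid, the main long-chain omega-3 fatty acid of the retina. Dietary precursors are turned into it by alternating steps of desaturation, which adds double bonds, and elongation, which lengthens the chain. Acyltransferases then place fatty acids on the glycerol backbone of phospholipids, and a transporter at the blood-retina barrier and in the pigment epithelium brings in docosahexaenoic acid that is already bound to lysophosphatidylcholine.

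Sequencing depth, recovered from the deposited values, was 21.3 to 26.8 M reads per NL retina and 19.0 to 23.4 M reads per LD retina. Levels are FPKM, fragments per kilobase of gene scaled to library size, so levels of different genes can be set beside each other. A single read on a gene of 1 kb stands for 0.0388 to 0.0493 FPKM. Within groups, the reads of LD-4 and LD-6, of NL-5 and NL-7, and of LD-1 and LD-7 were closest, with a chi-square per gene of 2.65 to 3.65 against 12.2 to 43.4 for the other 17 pairs. The labels do not say which mouse a retina came from, so all 10 were kept as separate samples, and the p-values measure the spread between these samples. Rod markers, abundant in any retina, summed to 10585 to 12711 FPKM under NL and 1659 to 3178 FPKM after LD, and lens markers summed to at most 1.52 FPKM in any retina.

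In the text, a gene rose or fell where limma on log2(FPKM + 0.1) gave an adjusted p under 0.01 (Benjamini-Hochberg over the 24508 genes tested), and was called changed where the fold change was also above 2. The 9 genes did not move together. *Elovl2* and *Elovl4*, which act on longer chains than *Elovl5*, and *Agpat3*, which acts in phospholipid assembly, fell after LD. *Elovl5* and the desaturase genes *Fads1*, *Fads2* and *Scd2* did not pass the test, and neither did *Lpcat1* and *Mfsd2a*. At the threshold with a fold change above 2, 1 of the 9 genes was lower (*Agpat3*) and none was higher, where 2.37% of all genes tested were lower and 4.13% were higher. At any fold change, 3 of the 9 fell and none rose, where 7.74% of all genes tested fell and 9.3% rose. The values of the LD retinas did not overlap those of the NL retinas for *Elovl4* and *Agpat3*, both lower after LD, which 10.6% of all genes tested were, while 11.8% were without overlap and higher. The median log2 fold change of the 9 genes was -0.28, and that of all genes tested was -0.01.

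**Figure D1:**
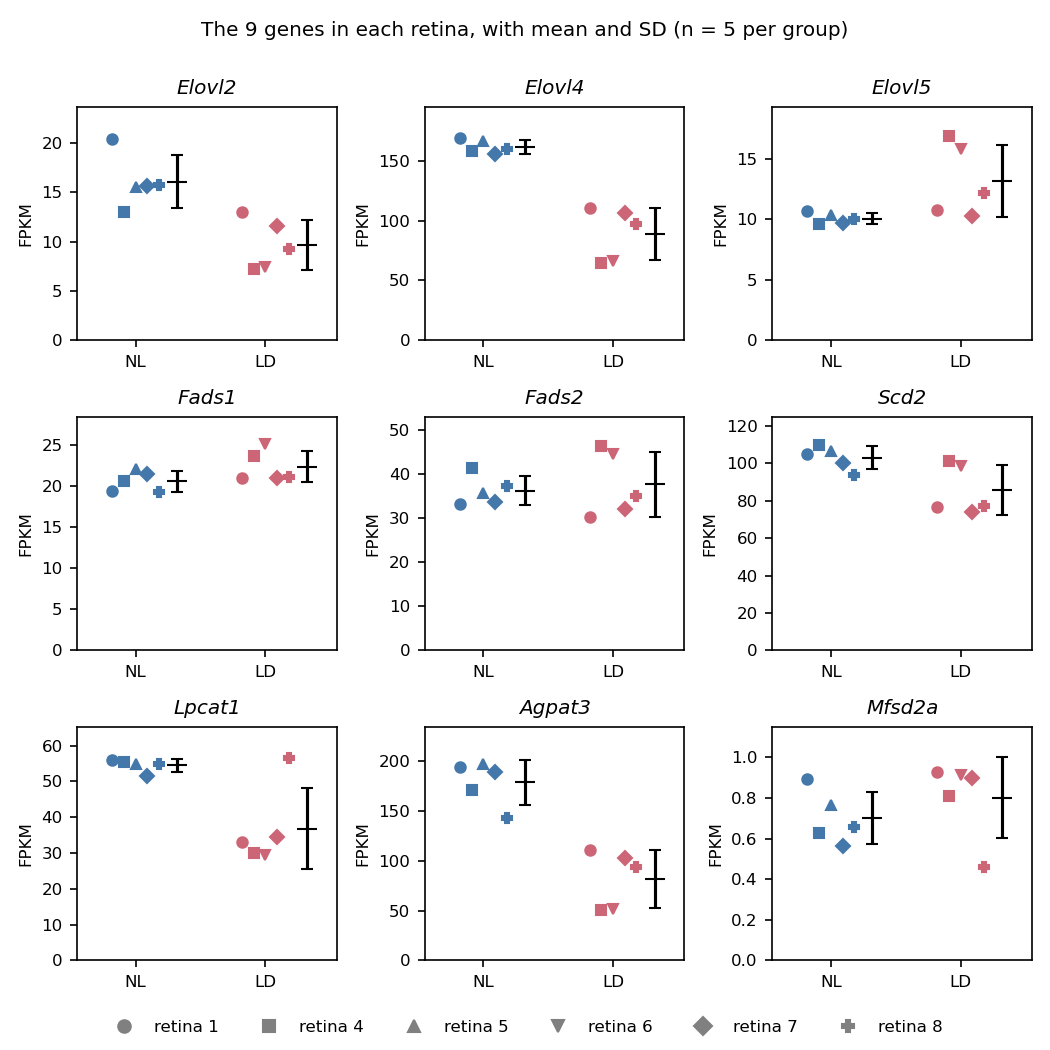
FPKM of each of the 9 genes (y axis, linear from 0) in the 5 NL and 5 LD retinas, with one point per retina, the shape giving the retina number, and the mean with its SD beside each group. A number shared by NL and LD does not mean a shared mouse. *Elovl4* lies between 155 and 169 FPKM under NL and between 64.6 and 110.1 FPKM after LD, *Lpcat1* has 1 LD retina at 56.7 FPKM above all NL retinas, and in *Elovl5* the LD retinas 4 and 6 stand at the top.

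Upstream sequences are shown for the 3 elongase genes, 2 of which fell and 1 of which did not, and for *Lpcat1*. They come from the RefSeq windows of 250 bases before the start site on GRCm38.p6, which is a C57BL/6J genome and not that of BALB/c, and are cut to the bases that hold no annotated exon. Windows were matched for 7 of the 9 genes, and those of *Fads2*, *Agpat3* and *Mfsd2a* overlap annotated exons over much of their length and are not printed. Capitals mark matches to GGATTA, the core bound by the photoreceptor factor CRX, to CACGTG, an E-box, or to CCAAT, read on either strand, so that ATTGG is a match to CCAAT on the other strand. The *Elovl2* window is chr13:41220406-41220653, minus strand, the *Elovl4* window chr9:83806306-83806555, minus strand, the *Elovl5* window chr9:77917115-77917363, plus strand, and the *Lpcat1* window chr13:73466981-73467196, plus strand.
Elovl2: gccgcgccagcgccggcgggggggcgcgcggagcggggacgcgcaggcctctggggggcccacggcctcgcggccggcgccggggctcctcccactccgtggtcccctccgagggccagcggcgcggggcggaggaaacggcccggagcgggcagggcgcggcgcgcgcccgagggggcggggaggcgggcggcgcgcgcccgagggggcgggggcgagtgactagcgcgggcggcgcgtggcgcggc
Elovl4: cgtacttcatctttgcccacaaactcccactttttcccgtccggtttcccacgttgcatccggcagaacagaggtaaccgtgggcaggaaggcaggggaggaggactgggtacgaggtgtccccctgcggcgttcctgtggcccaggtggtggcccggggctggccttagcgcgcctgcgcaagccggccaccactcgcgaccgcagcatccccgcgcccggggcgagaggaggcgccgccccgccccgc
Elovl5: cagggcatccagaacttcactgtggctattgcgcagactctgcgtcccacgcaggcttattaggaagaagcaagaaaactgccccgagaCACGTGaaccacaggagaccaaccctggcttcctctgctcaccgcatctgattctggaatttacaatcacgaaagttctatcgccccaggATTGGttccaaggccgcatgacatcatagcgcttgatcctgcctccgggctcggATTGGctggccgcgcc
Lpcat1: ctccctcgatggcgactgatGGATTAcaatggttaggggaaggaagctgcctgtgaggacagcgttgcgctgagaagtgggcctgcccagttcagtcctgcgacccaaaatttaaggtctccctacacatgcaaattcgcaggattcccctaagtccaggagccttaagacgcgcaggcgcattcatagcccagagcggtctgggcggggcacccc
The *Elovl2* window had 87.1% G and C, the *Elovl4* window 69.6%, the *Lpcat1* window 57.9% and the *Elovl5* window 55.8%. GGATTA was found in the *Lpcat1* window, at bases -230 to -225 from the RefSeq start site, chr13:73467231. The *Elovl5* window held CACGTG at -161 to -156 and CCAAT on the other strand at -71 to -67 and at -17 to -13. The *Mfsd2a* window, which is not printed, held CCAAT on the other strand at -54 to -50. TGCTGA, part of the site bound by MAF factors such as NRL, and TCACNCCAC, a sterol regulatory element, were also searched on both strands and had no match in the windows of the 7 genes, and *Elovl2* and *Elovl4* had no match to any of the 5 motifs. Among 32851 windows of the same 250 bases, GGATTA was in 6.25%, TGCTGA in 16.1%, TCACNCCAC in 1.05%, CCAAT in 33.8% and CACGTG in 6.02%. No search for other letters was made, and a match or its absence does not say whether a factor binds.

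The elongases come first. *Elovl4* (ENSMUSG00000032262, chr9:83778692-83806277 on GRCm38, minus strand) encodes the enzyme that makes very long-chain fatty acids in photoreceptors, and its mutation causes a dominant macular dystrophy in humans. Its level was 169, 158, 166, 155 and 159.6 FPKM in NL-1, NL-4, NL-5, NL-7 and NL-8. After LD it was 110.1 FPKM in LD-1, 64.6 in LD-4, 66.3 in LD-6, 107 in LD-7 and 96.7 in LD-8. Every LD retina was below every NL retina, and the NL retinas lay close together, with a coefficient of variation of 3.52% against 24.7% after LD. The group means were 161 ± 5.67 and 88.9 ± 22.0 FPKM (SD, n = 5 each), and LD stood at 55.1% of the NL mean. The log2 fold change was -0.90 (standard error, SE, 0.15, limma adjusted p = 0.00139), and the two-sided exact permutation test gave p = 0.00794, the smallest that 5 retinas against 5 allow. At 3966 to 12458 reads per retina, counting error is small beside the spread between retinas. Leaving out any 1 retina kept the adjusted p at 0.00471 or lower, and leaving out NL-1 and NL-8, chosen after the values were seen for their high pigment epithelium markers, gave -0.88 with an adjusted p of 0.0138.

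*Elovl2* (ENSMUSG00000021364, chr13:41182381-41220405, minus strand) encodes the elongase of the late steps on the way to docosahexaenoic acid. It was far less abundant than *Elovl4*, at 20.4, 13.0, 15.5, 15.7 and 15.7 FPKM in NL-1, NL-4, NL-5, NL-7 and NL-8. The LD retinas had 13.0 FPKM in LD-1, 7.20 in LD-4, 7.41 in LD-6, 11.5 in LD-7 and 9.22 in LD-8. LD-1 was level with the lowest NL retina, NL-4, and the other 4 LD retinas were below all NL retinas. *Elovl2* fell from 16.1 ± 2.70 to 9.67 ± 2.55 FPKM (SD, n = 5 each), with log2 fold change -0.75 (SE 0.18, limma adjusted p = 0.00879, exact permutation p = 0.0159). Its adjusted p lies close to the threshold of 0.01. Without NL-1, NL-5, NL-7, NL-8, LD-4, LD-6 or LD-8 the adjusted p was 0.0198 to 0.0226, while the log2 fold change stayed between -0.76 and -0.65.

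*Elovl5* (ENSMUSG00000032349, chr9:77917364-77984519, plus strand) encodes the elongase of the earlier, shorter chains and is expressed in most tissues. Under NL it was at 10.6, 9.60, 10.3, 9.67 and 10.04 FPKM in NL-1, NL-4, NL-5, NL-7 and NL-8. After LD it was at 10.7 FPKM in LD-1, 16.8 in LD-4, 15.8 in LD-6, 10.3 in LD-7 and 12.2 in LD-8. LD-7 lay within the NL range and LD-1 just above it, so the higher mean, 13.2 ± 2.99 against 10.1 ± 0.444 FPKM (SD, n = 5 each), rests mainly on LD-4 and LD-6. The log2 fold change was 0.36 (SE 0.13, limma adjusted p = 0.0670) and the exact permutation p was 0.0238. Without LD-4 and LD-6 the log2 fold change was 0.13 (limma adjusted p = 0.193), and without LD-1 and LD-7 it was 0.55 (adjusted p = 0.00326). Both pairs were chosen after the values were seen.

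Ratios within a retina ask whether genes changed unequally, and they do not depend on how libraries were scaled. The ratio of *Elovl4* to *Elovl5* was 15.8 to 16.4 under NL and 10.2, 3.84, 4.19, 10.4 and 7.94 in LD-1, LD-4, LD-6, LD-7 and LD-8. It was thus nearly constant under NL and lower in every LD retina, by 1.26 on the log2 scale (difference -1.26, SE 0.31, exact permutation p = 0.00794, adjusted over 5 ratios p = 0.0198). The ratio of *Elovl2* to *Elovl5* was 1.35 to 1.92 under NL and 0.427 to 1.21 after LD, a log2 difference of -1.12 (SE 0.32, exact permutation p = 0.00794, adjusted p = 0.0198), again with no overlap. Between the pair that fell the ratio overlapped. *Elovl2* to *Elovl4* was 0.0822 to 0.121 under NL and 0.0953 to 0.118 after LD, a log2 difference of 0.14 (SE 0.10, exact permutation p = 0.198, adjusted p = 0.248), which does not show that they changed alike.

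**Figure D2:**
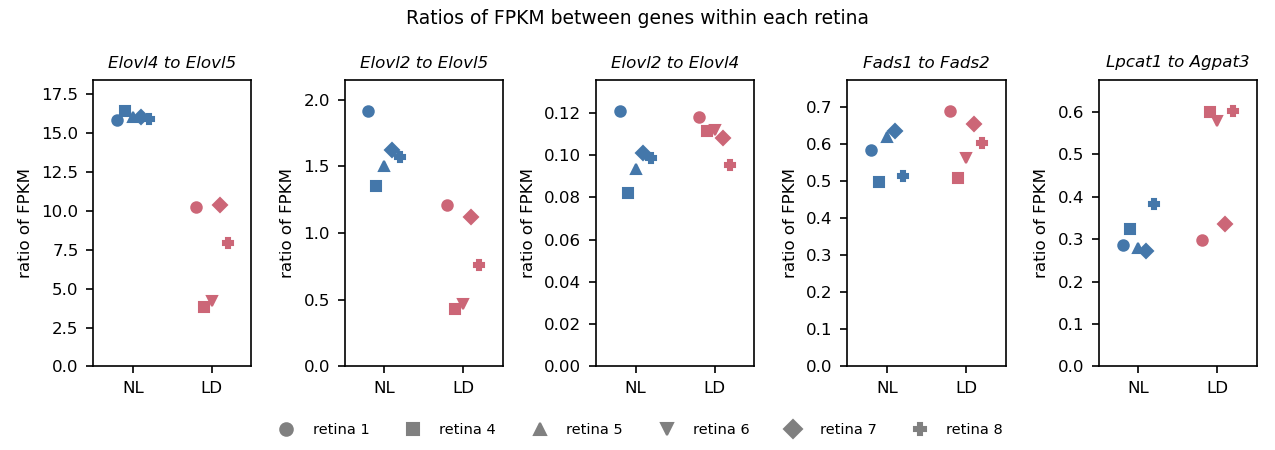
Ratio of the FPKM of 2 genes within each retina (y axes, linear from 0) for 5 pairs of genes, with one point per retina and the shape giving the retina number. *Elovl4* to *Elovl5* is 15.8 to 16.4 under NL and 3.84 to 10.4 after LD, whereas the *Fads1* to *Fads2* and *Elovl2* to *Elovl4* ratios of the 2 groups overlap.

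None of the 3 desaturase genes passed the test. *Fads2* and *Fads1* encode the front-end desaturases that act on either side of the first elongation of polyunsaturated chains, and they lie near each other on chromosome 19, *Fads1* (ENSMUSG00000010663) at chr19:10182888-10196870 on the plus strand and *Fads2* (ENSMUSG00000024665) at chr19:10064164-10101503 on the minus strand. *Fads1* was at 19.4, 20.6, 22.1, 21.4 and 19.2 FPKM in NL-1, NL-4, NL-5, NL-7 and NL-8, and at 20.98, 23.6, 25.1, 21.03 and 21.1 FPKM in LD-1, LD-4, LD-6, LD-7 and LD-8. LD-4 and LD-6 were above all NL retinas and the other 3 were within their range. The means were 20.6 ± 1.27 and 22.4 ± 1.88 FPKM (SD, n = 5 each), with log2 fold change 0.12 (SE 0.06, limma adjusted p = 0.204, exact permutation p = 0.119).
*Fads2* was at 33.2, 41.5, 35.8, 33.7 and 37.4 FPKM in the NL retinas in the same order, and at 30.4, 46.5, 44.6, 32.2 and 35.1 FPKM in the LD retinas. The LD values lay on both sides of the NL range, with LD-4 and LD-6 above it and LD-1 and LD-7 below it. The means of 36.3 ± 3.35 and 37.8 ± 7.35 FPKM (SD, n = 5 each) gave a log2 fold change of 0.04 (SE 0.12, limma adjusted p = 0.852, exact permutation p = 0.722), whose sign turned when LD-4 (-0.04) or LD-6 (-0.03) was left out. The ratio of *Fads1* to *Fads2* was 0.497 to 0.636 under NL and 0.507 to 0.690 after LD (log2 difference 0.08, SE 0.11, exact permutation p = 0.468, the same after adjustment).
*Scd2* (ENSMUSG00000025203, chr19:44293676-44306864, plus strand) encodes a stearoyl-CoA desaturase, which makes monounsaturated fatty acids, and an exon of it covers the 61 bases of the microRNA gene *Mir5114*. Under NL it was at 105, 109.6, 107, 100.2 and 93.8 FPKM in NL-1, NL-4, NL-5, NL-7 and NL-8, and after LD at 76.9, 102, 98.9, 74.2 and 77.2 FPKM in LD-1, LD-4, LD-6, LD-7 and LD-8. Here LD-4 and LD-6 lay within the NL range and the other 3 LD retinas lay below it. The means were 103 ± 6.23 and 85.7 ± 13.3 FPKM (SD, n = 5 each). The log2 fold change was -0.28 (SE 0.10, limma adjusted p = 0.0586, exact permutation p = 0.0476). Without LD-4 and LD-6 the log2 fold change was -0.44 (limma adjusted p = 8.77e-04), and without LD-1 and LD-7 it was -0.16 (adjusted p = 0.241). Both pairs were chosen after the values were seen.

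Of the acyltransferases, *Agpat3* (ENSMUSG00000001211, chr10:78269178-78352489, minus strand) encodes a lysophosphatidic acid acyltransferase that brings docosahexaenoic acid into phospholipids, and mice without it lose such lipids from the retina. An exon of it shares 16 bases with the antisense gene *Gm40709*. *Agpat3* had the highest mean of the 9 genes under NL, with 195, 171, 197, 189 and 143 FPKM in NL-1, NL-4, NL-5, NL-7 and NL-8. The LD retinas had 111 FPKM in LD-1, 50.3 in LD-4, 51.2 in LD-6, 103 in LD-7 and 94.0 in LD-8. All 5 were below every NL retina, and LD-4 and LD-6 were well below the other 3. *Agpat3* fell from 179 ± 22.6 to 81.9 ± 29.1 FPKM (SD, n = 5 each), to 45.7% of the NL mean and by 2.30-fold on the log2(FPKM + 0.1) scale, with log2 fold change -1.20 (SE 0.23, limma adjusted p = 0.00328, exact permutation p = 0.00794). It was the only one of the 9 genes called changed, on 7949 to 32436 reads per retina. Without NL-5 the adjusted p was 0.0102, and it was 0.0207 when each of the 3 closest pairs was averaged into 1 sample. Without LD-4 and LD-6 together the log2 fold change was -0.80 (adjusted p = 0.00141), which is under 2-fold.

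*Lpcat1* (ENSMUSG00000021608, chr13:73467197-73516422, plus strand) encodes a lysophosphatidylcholine acyltransferase that makes saturated phosphatidylcholine, and its loss causes photoreceptor degeneration in mice. It was at 55.9, 55.4, 55.0, 51.5 and 54.8 FPKM in NL-1, NL-4, NL-5, NL-7 and NL-8, and at 33.1, 30.2, 29.6, 34.5 and 56.7 FPKM in LD-1, LD-4, LD-6, LD-7 and LD-8. In 4 LD retinas it lay far below the NL range, and in LD-8 it was above all NL retinas. With all retinas the means were 54.5 ± 1.77 and 36.8 ± 11.3 FPKM (SD, n = 5 each), with log2 fold change -0.61 (SE 0.15, limma adjusted p = 0.0132, exact permutation p = 0.0476), which did not pass the test. Without LD-8 it was -0.78 (SE 0.06, adjusted p = 1.22e-05). LD-8 was not at the NL level for *Agpat3*, *Elovl4* or *Elovl2*, which were at 94.0, 96.7 and 9.22 FPKM there. The ratio of *Lpcat1* to *Agpat3* was 0.272 to 0.383 under NL and 0.298, 0.599, 0.578, 0.336 and 0.603 in LD-1, LD-4, LD-6, LD-7 and LD-8, a log2 difference of 0.59 (SE 0.24, exact permutation p = 0.0635, adjusted p = 0.106).

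*Mfsd2a* (ENSMUSG00000028655, chr4:122946850-122961188, minus strand) encodes the transporter of docosahexaenoic acid bound to lysophosphatidylcholine. It had the lowest level of the 9 genes, on 23 to 51 reads per retina. Under NL it was at 0.894, 0.628, 0.766, 0.565 and 0.655 FPKM in NL-1, NL-4, NL-5, NL-7 and NL-8, and after LD at 0.930, 0.811, 0.914, 0.898 and 0.459 FPKM in LD-1, LD-4, LD-6, LD-7 and LD-8. LD-8 was below all NL retinas, LD-4 lay within their range and the other 3 were above it. No difference passed the test (log2 fold change 0.15, SE 0.20, limma adjusted p = 0.635, exact permutation p = 0.381).

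The order of the mean levels under NL was *Agpat3*, *Elovl4*, *Scd2*, *Lpcat1*, *Fads2*, *Fads1*, *Elovl2*, *Elovl5* and *Mfsd2a*. Of the neighbours in this order, *Agpat3* and *Elovl4*, and *Fads1* and *Elovl2*, had ranges that overlapped. After LD the order began with *Elovl4*, *Scd2* and *Agpat3*, whose ranges all overlapped, followed by *Fads2* and *Lpcat1*, which overlapped too, then *Fads1*, *Elovl5* and *Elovl2*, of which the last 2 overlapped, and *Mfsd2a*.

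Among the LD retinas, LD-4 and LD-6 were the lowest pair for 4 of the 9 genes (*Elovl2*, *Elovl4*, *Lpcat1* and *Agpat3*) and the highest pair for another 4 (*Elovl5*, *Fads1*, *Fads2* and *Scd2*). The share of all genes tested for which this pair was lowest or highest was not counted, so these numbers do not set the 9 genes apart. Against the NL mean, *Agpat3* was at -1.83 and -1.81 on the log2 scale in LD-4 and LD-6 and at -0.93 to -0.69 in the other 3. *Elovl5* was at 0.74 and 0.65 in LD-4 and LD-6 and at 0.03 to 0.28 in the other 3. Without this pair, the log2 fold change of *Elovl4* was -0.63 (limma adjusted p = 1.16e-04) and that of *Elovl2* was -0.51 (adjusted p = 0.0435).
Markers of several cell types also set this pair apart. LD-4 and LD-6 were the lowest pair for 12 of 12 rod markers and 7 of 8 cone markers. They were the highest pair for 7 of 8 Müller glia markers and 9 of 9 endothelial markers, and neither for any of the 8 microglia and macrophage markers or the 10 pigment epithelium markers. The summed rod markers were at -2.83 and -2.74 in these retinas and at -2.15 to -1.90 in the others. For the endothelial markers the sums were at 1.01 and 1.02 against 0.28 to 0.36. *Kdr* made up most of each of these sums, so they do not show that the other endothelial markers were above the NL mean in every LD retina. Müller glia markers were at -0.71 and -0.65 against -1.16 to -1.11, below the NL mean in every LD retina, and without *Glul*, which fell, they were at 0.27 and 0.32 against -0.33 to -0.29.

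**Figure D3:**
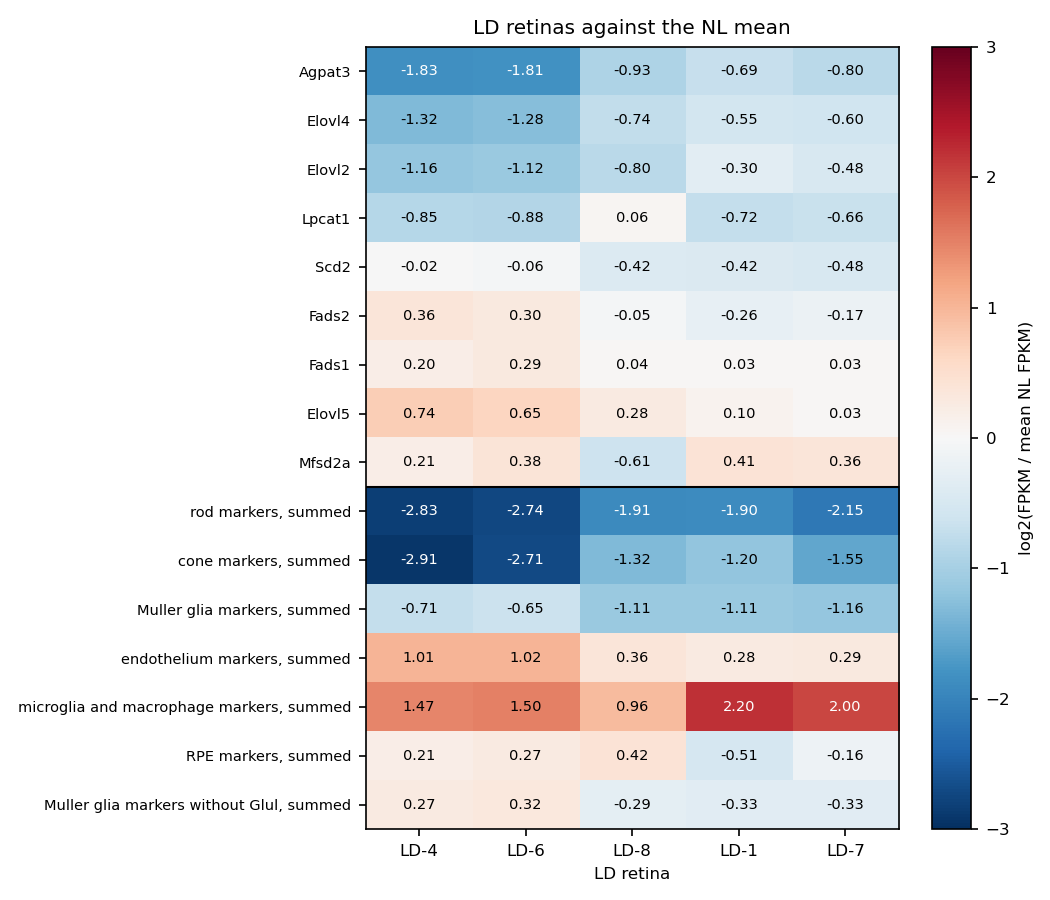
Level in each LD retina (columns, with LD-4 and LD-6 first) of the 9 genes and of summed markers of 6 cell types (rows), as log2 of FPKM over the mean of the 5 NL retinas, with the value printed in each field and no pseudocount. In LD-4 and LD-6, *Agpat3* is at -1.83 and -1.81 and the rod markers are at -2.83 and -2.74. *Elovl5* is at 0.74 and 0.65, the endothelial markers, mostly *Kdr*, at 1.01 and 1.02, and the Müller glia markers without *Glul* at 0.27 and 0.32. The part of these cell types in the values of the 9 genes was not tested.

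Between the groups, all 12 rod markers and 4 of 8 cone markers were called lower after LD. Cone markers summed to 318 to 496 FPKM under NL and 54.0 to 178 FPKM after LD. The 8 Müller glia markers, of which 1 rose (*Sox9*) and 1 fell (*Glul*), summed to 1068 to 1304 FPKM under NL and 526 to 749 FPKM after LD, without overlap. Without *Glul*, the most abundant of them, which was left out after the values were seen, they summed to 435 to 479 FPKM under NL and 368 to 578 FPKM after LD. Endothelial markers summed to 41.0 to 51.0 FPKM under NL and 56.1 to 93.7 FPKM after LD, with 1 of 9 genes higher (*Kdr*). *Kdr* made up most of each of these sums, so they do not show that the other endothelial markers were higher in every LD retina. In LD-8, *Cldn5*, *Pecam1*, *Cdh5* and *Abcb1a* were below all NL retinas, *Kdr* and *Tie1* were above them, and the rest were within their range. Microglia and macrophage markers summed to 21.5 to 36.4 FPKM under NL and 49.1 to 116 FPKM after LD, with 5 of 8 called higher. *C1qa* and *C1qb* made up most of each sum, so the sums do not show that every marker was higher. *P2ry12* was at 0.833, 1.11 and 0.529 FPKM in LD-4, LD-6 and LD-8, below all NL retinas. It was at 2.38 FPKM in LD-1, above them, and at 1.76 FPKM in LD-7, within their range. Pigment epithelium markers summed to 55.8 to 163 and 65.8 to 125 FPKM, with none of 10 passing. None of these lists except that of the lens had a marker at 0 in every retina. In whole neural retina, fewer cells of a type and less RNA per cell cannot be told apart, and the part of these cell types in the values of the 9 genes was not tested.

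The rest of the pathway was taken from 10 lists of other genes of fatty acid and phospholipid metabolism, 91 genes of which 88 were tested. Of these, 2 were called higher and 3 lower, and at any fold change 13 rose, 12 fell and 63 did not pass. Thus 28.4% of the 88 genes passed at any fold change in either direction, where 17.0% of all genes tested did. The median log2 fold change of the 88 genes was -0.0025, beside -0.01 for all genes tested.
*Elovl1*, the elongase of saturated and monounsaturated very long chains, rose from 2.01 ± 0.342 to 7.11 ± 0.575 FPKM (SD, n = 5 each), with log2 fold change 1.78 (SE 0.11, limma adjusted p = 1.93e-06). It was the one gene of the 3 other elongases tested that passed. Of the 5 other desaturase genes tested 1 rose, and *Degs1*, a sphingolipid desaturase and the most abundant of them, was at 17.0 ± 0.937 and 19.3 ± 2.56 FPKM (SD, n = 5 each, adjusted p = 0.161). Among the partners of the elongases, which complete each round of elongation, 1 of 6 fell, and *Tecr*, the most abundant, was at 125 ± 8.40 and 115 ± 6.29 FPKM (SD, n = 5 each, adjusted p = 0.175).

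Of 15 other acyltransferase genes 4 rose and 2 fell. *Agpat2*, a relative of *Agpat3* with its main role in fat tissue, rose from 0.674 ± 0.146 to 2.09 ± 0.381 FPKM (SD, n = 5 each), with log2 fold change 1.505 (SE 0.17, adjusted p = 8.89e-05) that was 0.88 with a pseudocount of 1. Thus this acyltransferase was higher after LD while *Agpat3* was lower, at levels far apart. Of 22 genes of head group synthesis 2 rose and 2 fell. *Cds1*, which makes the CDP-diacylglycerol needed for phosphatidylinositol, fell from 87.1 ± 7.17 to 32.4 ± 9.76 FPKM (SD, n = 5 each), with log2 fold change -1.47 (SE 0.18, adjusted p = 1.58e-04).

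Among 8 genes of uptake and binding 1 rose and 2 fell. *Fabp12*, a fatty acid-binding protein gene expressed in the retina, fell from 48.9 ± 1.83 to 20.5 ± 7.63 FPKM (SD, n = 5 each), with log2 fold change -1.33 (SE 0.22, adjusted p = 0.00116). It was under 2-fold without LD-4 and LD-6 (-0.95), and its adjusted p was 0.0128 without NL-1 and NL-8. Of 7 phospholipase genes 1 rose and 2 fell. *Pla2g7*, which encodes platelet-activating factor acetylhydrolase, fell from 32.1 ± 1.40 to 10.4 ± 2.24 FPKM (SD, n = 5 each), with log2 fold change -1.65 (SE 0.13, adjusted p = 7.22e-06).

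No gene was called changed in the other lists. Of 5 acyl-CoA synthetase genes 1 rose and 1 fell, and *Acsl3*, the most abundant, was at 66.5 ± 5.78 and 49.4 ± 13.6 FPKM (SD, n = 5 each, adjusted p = 0.0586). Of 10 genes of fatty acid synthesis and its regulators 1 fell, and *Acly*, which supplies acetyl-CoA for it, was at 62.6 ± 2.47 and 60.2 ± 1.40 FPKM (SD, n = 5 each, adjusted p = 0.329). Of 7 peroxisomal genes 2 rose and 1 fell, and *Scp2*, the most abundant, was at 37.0 ± 2.25 and 37.7 ± 2.60 FPKM (SD, n = 5 each, adjusted p = 0.787).

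Further genes that passed at any fold change are named here after their values were seen. *Adipor1*, a receptor gene needed for docosahexaenoic acid in photoreceptors, fell from 106 ± 4.95 to 59.1 ± 13.1 FPKM (SD, n = 5 each), with log2 fold change -0.87 (SE 0.14, adjusted p = 8.12e-04), and *Pla2g5*, a secreted phospholipase gene, fell by 0.85 (adjusted p = 3.34e-06). *Acsl5*, an acyl-CoA synthetase gene, rose by 0.90 (adjusted p = 1.55e-06) and *Fads3*, next to *Fads1* and *Fads2* in the genome, by 0.84 (adjusted p = 8.52e-05). *Srebf1*, the transcription factor gene of lipid synthesis, fell by 0.51 (adjusted p = 3.34e-04).

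**Figure D4:**
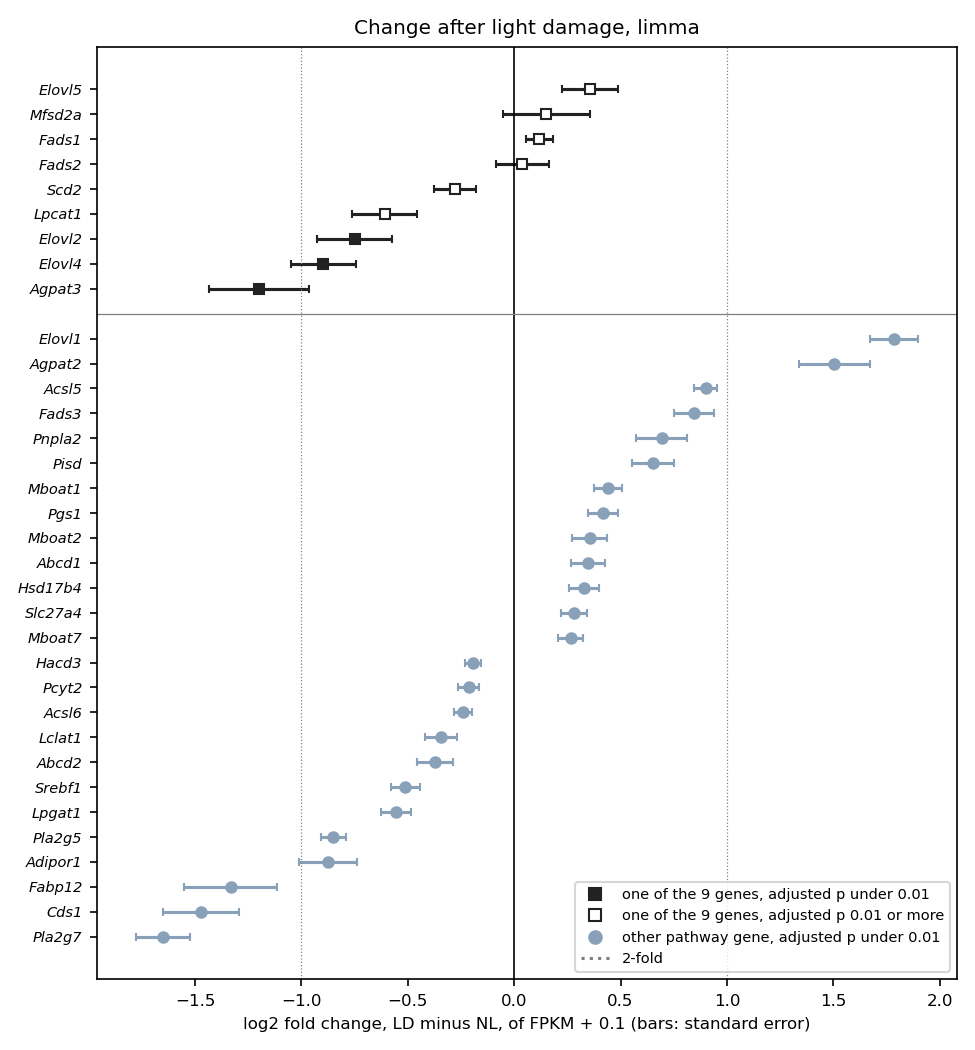
log2 fold change of LD against NL on FPKM + 0.1 (x axis, bars give the SE) for the 9 genes (upper squares, filled where the adjusted p is under 0.01) and for the 25 other genes of the pathway lists with an adjusted p under 0.01 (lower circles). *Agpat3* at -1.20 is past the dotted line of a 2-fold change, *Elovl4* at -0.90 and *Elovl2* at -0.75 are not, and the lower circles, shown because they passed, reach from -1.65 for *Pla2g7* to 1.78 for *Elovl1*.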

How the data were processed

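The authors deposited one table of FPKM values for 54532 genes in 10 retinas, with identifiers, positions and lengths. Their submission notes name TopHat2 2.0.9, Bowtie2 2.0.6 and mm8, whereas the positions in the table are those of GRCm38, and 53499 of 54532 genes have the same position in GENCODE M21. The paper and the labels name different Illumina instruments. The counting program, the annotation and the use of strand are not given in the sources used here. Without strand, reads of overlapping antisense genes cannot be told apart.

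Multiplied by gene length and divided by a constant per retina, 100% of values under 1000 reads were within 0.01 of a whole number of reads, which gave the reads per gene. The deposited FPKM already carry a factor per retina of 0.951 to 0.968 under NL and 1.041 to 1.069 after LD.

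The 24508 genes reaching 0.1 FPKM in 5 or more retinas were compared on log2(FPKM + 0.1) with limma 3.58.1 (intensity trend, R 4.3.3) and Benjamini-Hochberg adjustment over these genes. A fold change on this scale understates that of low genes. The call rule was that of the paper, adjusted p under 0.01 together with more than 2-fold. Two-sided exact permutation tests over retinas were used for single genes and 5 ratios (scipy 1.17.1, numpy 2.4.6, pandas 2.3.3, Python 3.11.15, plots with matplotlib 3.10.9). The fit was tested on simulated data with independent retinas and the same dispersion in both groups. That test does not cover close pairs of retinas or a wider spread after LD. Promoter windows are from RefSeq (GRCm38.p6).

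The 9 genes, the pathway and marker lists and the tests were chosen with earlier results of these data known. Named by rule are the 9 genes, pathway genes past both thresholds, and in each pathway list without one the tested gene of the highest mean FPKM. *Adipor1*, *Pla2g5*, *Acsl5*, *Fads3* and *Srebf1* passed at any fold change and were named after their values were seen, without a rule. Alternatives changed the pseudocount, the filter, the scaling, the trend, the model (limma-voom on recovered reads), the threshold and the retinas, or added the replicate number as a block. Another 3, which leave out pairs of retinas, were chosen after seeing the data.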

Additional observations from a re-analysis of the deposited data

Results flagged for a closer look

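Of 40 groups of 5 values, made of the 9 genes, the pathway genes named by rule and depth, 4 had 1 retina far from the other 4, where chance gives about 2. *Lpcat1* was at 56.7 FPKM in LD-8 and at 29.6 to 34.5 FPKM in the other LD retinas, and the 51.5 FPKM of NL-7 stood below 54.8 to 55.9 FPKM in the rest of the NL group. *Mfsd2a* was at 0.459 FPKM in LD-8, on 23 reads, and at 0.811 to 0.930 FPKM in the other LD retinas. NL-8 had 26.8 M reads and the other NL retinas 21.3 to 22.3 M reads.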

How the results depend on the processing

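All 5 ratios kept their direction under all 13 alternatives run for each. *Elovl1*, *Cds1* and *Pla2g7* remained called under all 25 alternatives run for single genes. Of the 9 genes, 1 was called lower. The number was 0 over the retinas of shared numbers without a block, with closest pairs averaged, without LD-4 and LD-6, and without NL-1 and NL-8, 3 without LD-1 and LD-7, and 4 at an adjusted p under 0.05 with any fold. With each retina left out in turn it was 0 to 1, with 0 only without NL-5. At any fold 3 fell, and the number was 1 over shared numbers without a block and with closest pairs averaged, 0 without NL-1 and NL-8, and 1 to 3 with each retina left out (1 without NL-5). Without LD-1 and LD-7, 1 gene (*Elovl5*) rose.

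The replicate numbers 1, 4, 7 and 8 occur in both groups. Retinas with the same number had correlated deviations from their group means of 0.0575, 0.0656, -0.0121 and -0.0893, so the numbers were not taken to pair the samples. With the replicate block over these 8 retinas, 0 of the 9 genes were called and 1 fell at any fold. The adjusted p of *Elovl4* was 0.0188, that of *Agpat3* 0.0261 and that of *Fabp12* 0.0139, 258 genes in all were called lower and 550 higher, and *Fads2* turned to -0.030, as it also did over these retinas without the block. In 2 of the 4 numbers an LD retina correlated best with the NL retina of its own number.

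*Fads2* also turned to -0.041 without LD-4, -0.026 without LD-6 and -0.16 without both. *Elovl2* kept its sign in all 25 alternatives and had an adjusted p of 0.01 or more in 15, at 0.0135 to 0.0557. *Lpcat1* passed with limma-voom on recovered reads (-0.61, adjusted p = 0.00591; range over alternatives 1.22e-05 to 0.124). *Fabp12* was at -0.95 without LD-4 and LD-6 and had an adjusted p of 0.0128 without NL-1 and NL-8. Of the pathway genes, 1 in place of 2 was called higher with a pseudocount of 1, and 22 higher and 15 lower passed an adjusted p under 0.05 with any fold. Of all genes, 582 were called lower and 1013 higher. With a pseudocount of 1 these were 312 and 504, and at an adjusted p under 0.05 with any fold 3275 and 3543. Lower genes numbered 369 over shared numbers without a block, 366 with closest pairs averaged and 368 without LD-4 and LD-6. The cause of these changes was not tested. Without the factor per retina the median log2 fold change of all genes was 0.11, and with TPM 0.09, in place of -0.01. *Mfsd2a* rests on 23 to 51 reads per retina, the fewest of the 9 genes, and its log2 fold change was 0.31 without LD-8.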
